A study of Mus musculus with 6 samples.

Results

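The genes described here encode the SMAD proteins that carry the TGF-b signal and the proteins that restrain them: Smad2, Smad3, Smad4, Smad6, Smad7, Ski, Skil, Tgif1, Smurf1 and Smurf2. Their members are the regions that the deposited tables assign to these 10 genes by symbol. The data are 6 CUT&Tag libraries of primary cardiac fibroblasts from mouse heart, and CUT&Tag maps where an antibody's target sits on chromatin by cutting and tagging the DNA beside it. The libraries fall into a T set and an S set after the letter in their titles, each with 1 library labelled NC, 1 labelled TGF-b and 1 labelled TGF-b+SiTAZ (T set) or TGF-b+SiSRF (S set). The antibody is not in the labels. That T stands for TAZ and S for SRF is inferred from the study's text, which describes siRNA against Piezo2 in this experiment where the labels name TAZ or SRF. The third library is therefore called the siRNA library here. The series' design text mentions Cre-mediated Tet3 deletion before TGF-b, which no sample label gives, and neither the age and strain of the mice nor the number of animals per library is in the labels. Chromatin association does not measure transcripts, so the labelled cell type was not checked against marker genes.

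Each of the 4 tables compares 2 libraries of a set over the peaks called in either. The members took 62 of 170890 regions in the T set table of TGF-b and NC, where all 10 genes had a region. They took 74 of 180118 in the T set table of siRNA and TGF-b, again with all 10 genes. In the S set they took 11 of 52723 regions for TGF-b and NC, in 7 genes, with none for Ski, Smad4 or Tgif1. They took 9 of 52579 for siRNA and TGF-b, also in 7 genes, with none for Smad7, Skil or Tgif1. The deposited value is a read density over a window of 2 kb, from which the reads behind every member region could be recovered. A member region of the first T set table held 5 to 187 reads over both libraries, with a median of 32, while the median region of the whole table held 9 reads in NC and 5 in TGF-b. Log2 ratios are of the deposited densities, TGF-b over NC or siRNA over TGF-b. The 95% intervals beside them cover counting error only, since there was 1 library per treatment and set, and no test of a treatment was possible. Reads in overlapping windows are shared, and the 62 regions form 47 groups of windows that do not overlap.

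TGF-b ligands bind a pair of serine/threonine kinase receptors that phosphorylate SMAD2 and SMAD3, which join SMAD4, enter the nucleus and regulate genes of matrix production in fibroblasts. SMAD6 and SMAD7 are the inhibitory SMADs, made in response to the signal, that block receptors and effectors. SKI, SKIL (SnoN) and TGIF1 are corepressors that silence SMAD targets, and SMURF1 and SMURF2 are ubiquitin ligases that mark SMADs and receptors for degradation. TAZ is a coactivator that binds DNA through TEAD factors, and SRF binds CArG boxes near genes of the contractile cytoskeleton.

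The T set signal at the start sites of Ski, Smad2 and Smad6 was higher in the TGF-b library than in NC, and at Ski and Smad2 it was lower again in the siRNA library. Ski held 29, 158 and 41 reads in NC, TGF-b and siRNA, and Smad2 held 13, 66 and 13. Reads are not scaled between libraries. Smad6 held 16, 46 and 41 reads, and whether its siRNA library lies above or below TGF-b depends on the scaling. Smurf1 was lower in TGF-b than in NC. In the S set the Smad3 start site held 3, 24 and 8 reads, and in the T set it held 37, 52 and 20.

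The stretches before 4 of these start sites are shown because 2 of the genes were higher and 1 was lower in the T set TGF-b library, and Smad3 was higher in the S set. They are the 250 bases upstream of the RefSeq start, 5′ to 3′ on the gene's strand, from GRCm38.p6: chr4:155222536-155222785 for Ski, chr9:64022060-64022309 for Smad6, chr9:63757995-63758244 for Smad3 and chr5:144965831-144966080 for Smurf1, all on the minus strand. Capitals mark GGCGCC, a GC-rich SMAD motif, and CAGAC, the SMAD box, which appears as GTCTG on the other strand.
Ski: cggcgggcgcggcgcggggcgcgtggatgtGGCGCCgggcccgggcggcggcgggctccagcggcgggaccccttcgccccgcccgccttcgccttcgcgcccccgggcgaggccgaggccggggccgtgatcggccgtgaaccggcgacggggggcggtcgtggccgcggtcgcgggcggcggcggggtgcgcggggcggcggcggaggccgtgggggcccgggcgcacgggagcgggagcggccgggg
Smad6: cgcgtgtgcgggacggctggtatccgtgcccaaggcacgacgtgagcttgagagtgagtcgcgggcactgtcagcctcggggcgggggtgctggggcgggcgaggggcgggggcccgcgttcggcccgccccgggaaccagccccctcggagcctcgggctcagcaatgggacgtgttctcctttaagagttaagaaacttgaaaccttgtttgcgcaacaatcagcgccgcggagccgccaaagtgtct
Smad3: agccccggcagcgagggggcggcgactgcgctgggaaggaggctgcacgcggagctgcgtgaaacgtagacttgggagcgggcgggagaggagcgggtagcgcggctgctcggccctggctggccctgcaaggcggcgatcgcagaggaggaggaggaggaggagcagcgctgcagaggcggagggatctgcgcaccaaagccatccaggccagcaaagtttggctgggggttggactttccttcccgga
Smurf1: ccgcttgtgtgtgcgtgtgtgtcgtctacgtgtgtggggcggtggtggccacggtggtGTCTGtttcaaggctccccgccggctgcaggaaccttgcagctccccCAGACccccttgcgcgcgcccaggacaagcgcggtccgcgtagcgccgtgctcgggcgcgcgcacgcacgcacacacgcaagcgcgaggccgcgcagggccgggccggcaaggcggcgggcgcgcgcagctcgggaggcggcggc

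Ski's stretch held 1 GGCGCC, 220 to 215 bases upstream, and was 87.6% G and C, whereas the median of all 32851 such stretches was 52.4%. Smurf1's held 2 CAGAC motifs, 192 to 188 and 145 to 141 bases upstream. Smad3 and Smad6 held neither motif. The stretch of Smurf2, not printed, held 1 CAGAC and 2 GGCGCC. Over all stretches, 42.19% held CAGAC and 9.59% held GGCGCC on either strand, so these matches are common. The TEAD motif GGAATG, in 12.64% of stretches, and the CArG box, in 1.47%, were in none of these 5. The tables' positions are taken as GRCm39, so the measured regions themselves were not read from a genome. In the tables Ski's region is centred 708 bases upstream of the start, beyond the printed stretch, and its window of 2 kb reaches across it.

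**Figure D1:**
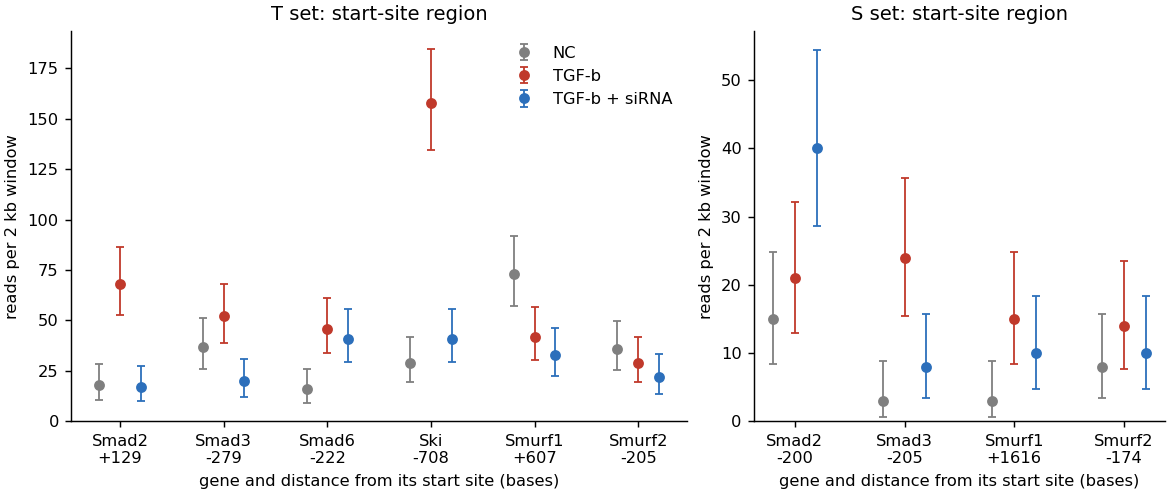
Reads in a window of 2 kb (vertical axis) at 1 start-site region per gene that both tables of a set hold, with exact Poisson 95% intervals for counting error. In the T set the TGF-b library stands above both other libraries at Smad2 and Ski, and at Smad6 the TGF-b and siRNA libraries, with 46 and 41 reads, stand above NC with 16. The Smad2 region shown, centred 129 bases past a start, was called as a peak in TGF-b only, which favours a higher value there. In the S set the TGF-b library stands above NC at Smad3. Each point is 1 library, and reads are not scaled between libraries.

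Among the receptor-regulated SMADs, Smad2 (ENSMUSG00000024563) had the clearer T set difference. Its promoter region at chr18:76374220-76374474, 304 bases upstream of a start, counted 13 reads (NC), 66 (TGF-b) and 13 (siRNA). The deposited densities were 6.96 (NC) and 33.7 (TGF-b), which gives a log2 ratio of 2.27 (1.51 to 3.21), or 4.84-fold. In the second table they were 28.4 (TGF-b) and 8.25 (siRNA), which gives -1.78 (-2.71 to -1.02). The NC and siRNA libraries were equal in reads, which are not scaled between libraries, and the TGF-b library stood apart. The region in the 5' UTR, centred 129 bases past a start, held 18, 68 and 17 reads in a window that overlaps the first, and its ratios were 1.86 (1.18 to 2.66) and -1.46 (-2.28 to -0.76). This 5' UTR region was called as a peak in TGF-b only, which by construction favours a higher value there. In contrast, a region in the first intron, 1630 bases past the start of another transcript, went from 26 reads in NC to 6 in TGF-b, at a log2 ratio of -1.86 (-3.27 to -0.78). It was called in NC only. Smad2 thus had regions on both sides of 0 within 3 kb of a start.

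Smad3 (ENSMUSG00000032402), the effector most tied to fibroblast activation, had the most T set regions, 14 in the first table together with Smurf1's equal count and 17 in the second. Its main promoter region, chr9:63665420-63665691, 279 bases upstream, counted 37 reads (NC), 52 (TGF-b) and 20 (siRNA). The log2 ratio of TGF-b over NC was 0.46 (-0.13 to 1.08), an interval that includes 0, and that of siRNA over TGF-b was -0.86 (-1.64 to -0.17). The neighbouring region 35 bases upstream, whose window overlaps it, held 31 and 53 reads, a ratio of 0.74 (0.13 to 1.40). Both TGF-b over NC values were below 2-fold as deposited. With the median of all regions as 0, the main region's ratios were 1.11 and -1.83, both past 2-fold, and without the authors' line that of siRNA over TGF-b was -1.34.

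The introns of Smad3 gave ratios on both sides of 0. The region at chr9:63623463-63623687, 4324 bases upstream of an internal start, counted 40 reads (NC), 10 (TGF-b) and 10 (siRNA), at ratios of -1.85 (-2.93 to -0.97) and 0.46 (-0.77 to 1.69). The region at chr9:63564595-63564714 in the fifth intron held 10, 24 and 18 reads, with ratios of 1.26 (0.29 to 2.38) and 0.07 (-0.81 to 0.92). A region 6362 bases upstream of an internal start held 6, 20 and 7 reads, with ratios of 1.68 (0.56 to 3.11) and -0.93 (-2.26 to 0.15). Of the 14 Smad3 regions, 4 were at least 2-fold higher and 2 at least 2-fold lower in TGF-b than in NC, where 17.3% and 42.1% of all regions in the table were. Of the 17 in the second table, 7 were higher and 3 were lower in siRNA than in TGF-b, where 49.7% and 16.2% of all regions were.

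Smad4 (ENSMUSG00000024515), the common partner of the receptor-regulated SMADs, had the sparsest signal of the SMAD genes. In the first T set table it had 2 intronic regions, with 16 reads in NC and 2 in TGF-b at chr18:73799321-73799426, and 6 and 3 reads at the other. In the second it had a promoter region with 1 read in TGF-b and 3 in siRNA and an intronic region with 1 and 5. Counts of this size leave every level but the 16 reads near the floor of 3 reads used here.

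Of the inhibitory SMADs, Smad6 (ENSMUSG00000036867) had a promoter region at chr9:63929498-63929628, 222 bases upstream, with 16, 46 and 41 reads in NC, TGF-b and siRNA. Its log2 ratio of TGF-b over NC was 1.49 (0.74 to 2.36), or 2.81-fold, from densities of 8.43 and 23.7. The ratio of siRNA over TGF-b was 0.32 (-0.29 to 0.92), an interval that includes 0. The sign rests on the scaling, since the ratio was -0.16 without the authors' line and -0.65 with the median of all regions as 0. A region 1056 bases upstream held 10, 44 and 40 reads, at ratios of 2.08 (1.21 to 3.15) and 0.35 (-0.27 to 0.96), and the windows of these regions overlap. Inside the gene the order of the libraries was another. The third-intron region at chr9:63908464-63908611 held 26, 31 and 7 reads, with ratios of 0.26 (-0.47 to 1.02) and -1.53 (-2.83 to -0.53). The region at chr9:63912253-63912390 went from 28 reads in NC to 4 in TGF-b, at a ratio of -2.44 (-4.16 to -1.26). A region 29559 bases past the start held 1, 14 and 0 reads.

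Smad7 (ENSMUSG00000025880), the inhibitory SMAD that blocks the TGF-b receptor, had no start-site region in the first T set table. In the second its 5' UTR region at chr18:75500645-75500709 counted 33 reads (TGF-b) and 19 (siRNA), at a ratio of -0.29 (-1.13 to 0.48) that includes 0 as deposited. It was -0.77 without the authors' line and -1.26 with the median of all regions as 0. Among its introns, the region at chr18:75518777-75518853 counted 11 reads (NC) and 30 (TGF-b), a ratio of 1.43 (0.53 to 2.48). The neighbour at chr18:75519161-75519391, whose window overlaps it, held 17, 27 and 4 reads, with ratios of 0.68 (-0.15 to 1.57) and -2.02 (-3.75 to -0.84). The other Smad7 regions of the first table lay between -0.38 and 0.25. Of the 10 Smad7 regions of siRNA over TGF-b, 3 were at least 2-fold higher and 1 was lower, with a median of 0.46, where 49.7% and 16.2% of all regions were and their median was 0.97. The higher ones were the 3' UTR region, a downstream region and an intron region 4089 bases past a start. The 3' UTR region held 3 reads in TGF-b and 16 in siRNA, a ratio of 2.54 (1.19 to 4.55). The downstream region held 0 and 10 reads, 3.74-fold higher with TGF-b set to the floor of 3 reads. The intron region held 9 and 14 reads, a ratio of 1.05 (-0.08 to 2.27), which lies close to the median of all regions. Also, 2 regions assigned to Smad7 lie in introns of another gene downstream.

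Ski (ENSMUSG00000029050) carried the highest member signal of the T set. Its promoter region, chr4:155307526-155307989, was called as a peak in all 3 libraries and counted 29 reads (NC), 158 (TGF-b) and 41 (siRNA). Densities of 15.3 and 77.9 gave a log2 ratio of TGF-b over NC of 2.35 (1.82 to 2.96), or 5.09-fold. Densities of 67.1 and 24.9 in the second table gave a ratio of siRNA over TGF-b of -1.43 (-1.95 to -0.96). Of the 16211 regions within 3 kb of a start with at least 20 reads, 2.40% had a TGF-b over NC ratio at least as high as that of Ski, and 2.66% as that of the Smad2 promoter. For siRNA over TGF-b, 88.42% of 13330 such regions had a ratio at least as high as Ski's, and 92.69% as the Smad2 promoter's. Both were called in NC and in TGF-b, whereas both Smad6 promoter regions were called in TGF-b only. The other 8 Ski regions of the first table, all intronic, ran from -1.95 to 0.47, and only 1 of them was above 0. The region at chr4:155257968-155258124 in the second intron held 56, 31 and 6 reads, with ratios of -0.85 (-1.50 to -0.24) and -1.73 (-3.13 to -0.68). The median of all regions of the first table, -0.65, lies inside the interval of that -0.85.

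The other corepressors had little signal. Skil (ENSMUSG00000027660) had no T set region within 3 kb of a start. Its intronic regions that both T set tables hold, 5041, 11104 and 12493 bases past a start, held 0, 6 and 12 reads, 2, 12 and 1 reads, and 16, 13 and 31 reads in NC, TGF-b and siRNA. With NC set to the floor of 3 reads, the first of these was 2.06-fold higher in TGF-b. The last had a siRNA over TGF-b ratio of 1.66 (0.81 to 2.64), which became 0.69 with the median of all regions as 0. For siRNA over TGF-b, regions 12200 and 15914 bases past a start held 13 and 31 reads and 0 and 9 reads. The window of the former overlaps that of the region at 12493 bases. Of the 5 Skil regions there, 4 were at least 2-fold higher and 1 lower, where 49.7% and 16.2% of all regions were. Tgif1 (ENSMUSG00000047407) had 1 region in each T set table, at different starts, with 9 reads in NC and 9 in TGF-b, and with 7 in TGF-b and 6 in siRNA. Neither differed beyond counting error.

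The ubiquitin ligase Smurf1 (ENSMUSG00000038780) was lower in TGF-b than in NC at its starts. Its promoter region at chr5:144902835-144902903, 212 bases upstream, held 83 reads in NC, the highest NC start-site count of the members, and 36 in TGF-b. The densities were 42.6 and 18.3, a log2 ratio of -1.22 (-1.80 to -0.68). This region was called as a peak in NC only, which by construction favours a higher value there. The region in the first intron, 607 bases past the start, has a window that overlaps it and held 73, 42 and 33 reads, with ratios of -0.82 (-1.38 to -0.29) and 0.14 (-0.52 to 0.78). At an internal start, the region at chr5:144835277-144835630 held 65, 44 and 28 reads, with ratios of -0.59 (-1.15 to -0.05) and -0.16 (-0.85 to 0.50). The intron region and this internal start region were called in both NC and TGF-b. All 4 Smurf1 regions within 3 kb of a start had ratios below 0 in the first table, from -1.22 to -0.42, although only 1 passed 2-fold. That call depends on the scaling, since the ratio of -1.22 became -0.57 with the median of all regions as 0, and the ratios of -0.59 and -0.42 lie above that median (-0.65).

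Distal introns of Smurf1 gave ratios on both sides of 0. The TGF-b library had 9 and 12 reads where NC had 0 at regions 6908 bases past and 10234 bases before internal starts. With NC set to the floor these were 2.92-fold and 3.76-fold higher. A region 33901 bases past the start held 7, 19 and 1 reads, with ratios of 1.42 (0.32 to 2.75) and -2.87 (-6.35 to -1.24), the latter -1.87 with the siRNA library set to the floor of 3 reads. A region 21037 bases past the start, called only in siRNA, held 2 reads in TGF-b and 25 in siRNA, a ratio of 3.57 (2.17 to 6.03), or 3.16 with the TGF-b library set to the floor. Smurf2 (ENSMUSG00000018363) had a promoter region at chr11:106811623-106811869, with 36, 29 and 22 reads and ratios of -0.29 and 0.09 (-0.71 to 0.86). The intervals of both its ratios include 0, and that of the first overlaps the interval of Smurf1.

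By reads per window of 2 kb, the T set start-site levels in NC ran from Smurf1 (83) through Smad3 (37), Smurf2 (36), Ski (29), Smad2 (18) and Smad6 (16) to Tgif1 (9). Only the first step, from Smurf1 to Smad3, was beyond the Poisson intervals of neighbours, 66.1 to 103 against 26.1 to 51.0. In TGF-b the order was Ski (158), Smad2 (68), Smad3 (52), Smad6 (46), Smurf1 (36 at the promoter), Smad7 (33, from the second table), Smurf2 (29), Tgif1 (9) and Smad4 (1, from the second table). Here the first step, from Ski to Smad2, was beyond the intervals of neighbours (134 to 185 against 52.8 to 86.2), and so was the step from Smurf2 to Tgif1 (19.4 to 41.6 against 4.12 to 17.1). In siRNA Ski and Smad6 (41 each) were followed by Smurf1 (33 at the intron 1 region), Smurf2 (22), Smad3 (20), Smad7 (19), Smad2 (17), Tgif1 (6) and Smad4 (3), and no neighbours differed beyond their intervals.

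**Figure D2:**
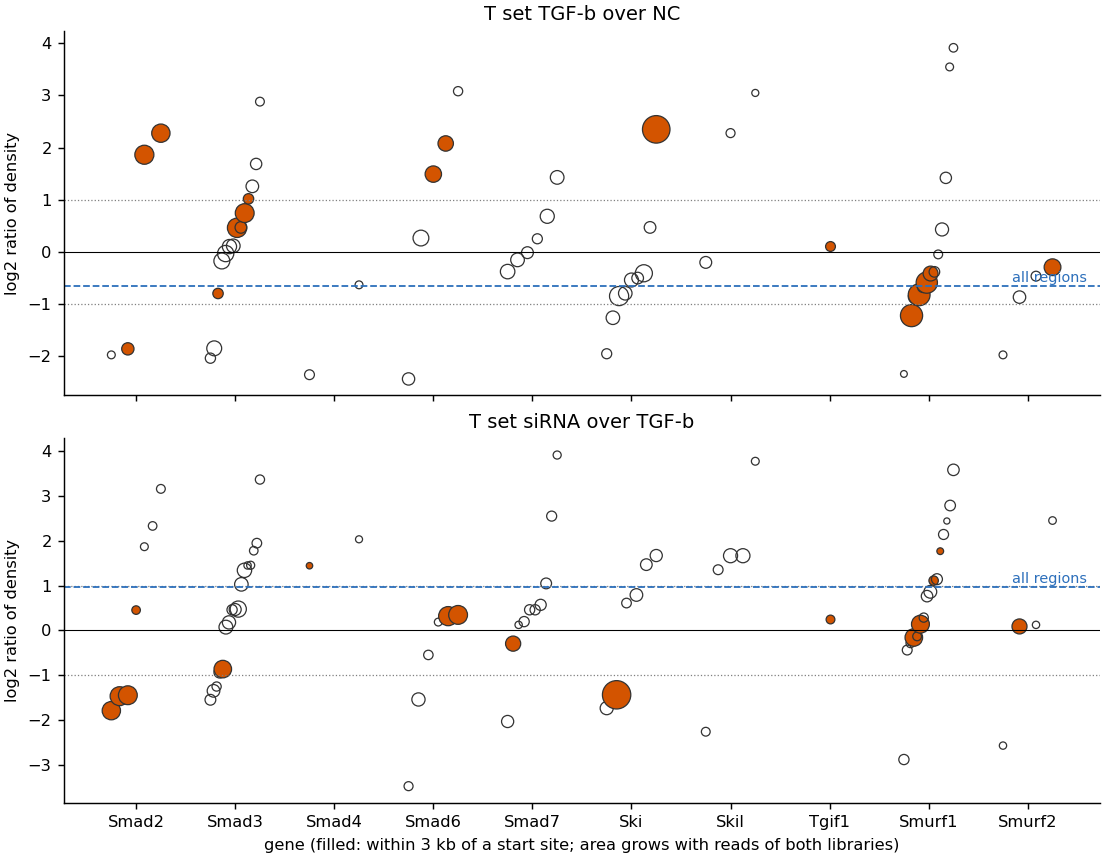
Log2 ratio of density (vertical axis) of every T set member region by gene, with TGF-b over NC above and siRNA over TGF-b below. Filled points lie within 3 kb of a start, area grows with the reads of both libraries, dotted lines mark 2-fold, and the dashed line is the median of all regions, -0.65 above and 0.97 below. The filled points of Ski, Smad2 and Smad6 reach 2.35, 2.27 and 2.08 in the upper panel, and those of Ski and Smad2 lie at -1.43 and -1.78 in the lower.

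Over the members as a list, T set ratios of TGF-b over NC lay on both sides of 0. Of the 62 regions, 16 (25.8%) were at least 2-fold higher, where 17.3% of all regions were, and 12 (19.4%) were at least 2-fold lower, where 42.1% of all regions were. With 1 region per overlapping window, an alternative chosen after seeing the data, 10 were higher and 11 lower, and with the median of all regions as 0, 22 were higher and 9 lower. The median was -0.16, beside -0.65 over all regions. Within 3 kb of a start, 6 of 16 member regions were higher and 2 were lower, with a median of 0.29, beside 19.2% higher, 29.2% lower and a median of -0.18 over all such regions. Those 6 are the regions of Ski, Smad2 (2), Smad6 (2) and Smad3 (7 and 14 reads, 2982 bases past a start), and they fall in 4 groups of windows. Beyond 3 kb, 10 of 46 were higher and 10 lower, beside 16.6% and 44.1% of all such regions. By 1 start-site region per gene, Ski, Smad2 and Smad6 were higher and Smurf1 was lower among 7 genes, beside 20.6% and 25.1% of all genes.

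A region called in 1 library only tends by construction to be higher in that library. Of the 62 regions, 35 were called in NC only, 19 in TGF-b only and 8 in both, beside 117769, 43854 and 9267 of all 170890 regions. The 8 called in both were the promoter of Ski (2.35), that of Smad2 (2.27), the Smad6 intron (0.26), the promoter of Smurf2 (-0.29), the Smurf1 regions (-0.59, -0.82 and -0.86) and the Ski intron (-0.85). Introns held 50 of the 62 regions (80.6%), beside 74.6% of all regions assigned to a gene.

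In the second T set table, of siRNA over TGF-b, 29 of 74 regions (39.2%) were at least 2-fold higher, where 49.7% of all regions were, and 14 (18.9%) were at least 2-fold lower, where 16.2% were. With the median of all regions as 0 the balance turned, to 12 higher and 22 lower. That centring shifts all regions alike, and the share of all regions under it was not taken. The median was 0.46, beside 0.97 over all regions. Within 3 kb of a start, 3 of 16 were higher and 4 lower, beside 34.5% and 19.6% of all such regions. The 3 that were higher, at Smad4 and at internal starts of Smurf1, held 1, 1 and 6 reads in TGF-b, and the intervals of all 3 included 0. The 4 that were lower were the Ski promoter and 3 Smad2 regions with overlapping windows. Beyond 3 kb, 26 of 58 were higher and 10 lower, beside 51.4% and 15.6%. By 1 start-site region per gene, 1 of 9 genes was higher and 2 were lower, beside 31.5% and 20.4% of all genes. The direct comparisons share the TGF-b library, so that a high value in it raises the first ratio and lowers the second.

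**Figure D3:**
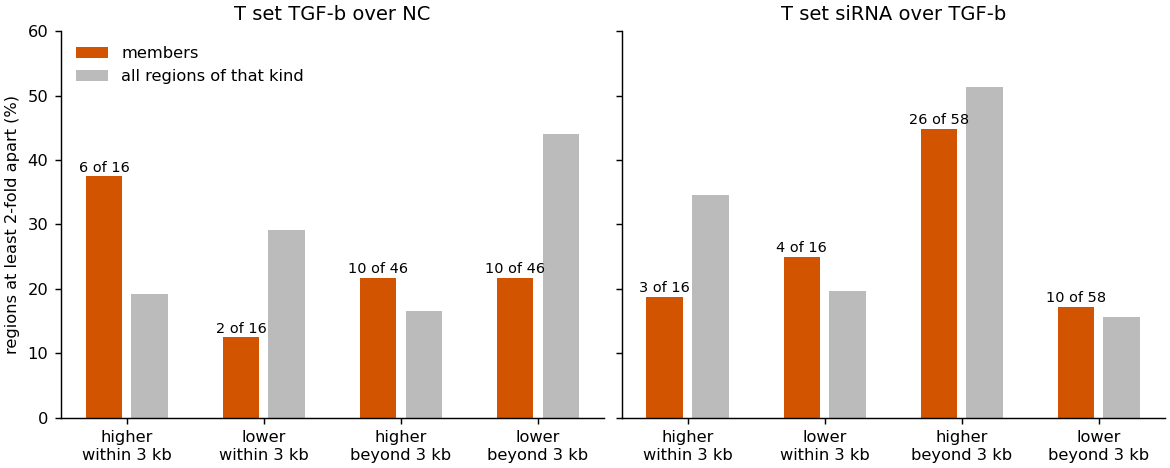
Share of T set regions at least 2-fold higher or lower (vertical axis, percent), for member regions (coloured, with their counts) and all regions at the same distance class (grey). Within 3 kb of a start, 6 of 16 member regions were higher in TGF-b than in NC beside 19.2% of all, and 10 of 46 beyond 3 kb were lower beside 44.1%. The grey shares are not matched for reads.

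Regions beyond 3 kb in the siRNA table with at least 20 reads showed both directions within single genes. Ski introns 38024 and 15395 bases past the start held 9 and 22 reads and 9 and 19 reads in TGF-b and siRNA, with ratios of 1.67 (0.66 to 2.85) and 1.46 (0.43 to 2.66), against the -1.73 of the intron described above. In the first intron of Smad3, regions 6664 and 5330 bases past a start held 19 and 4 reads and 27 and 7 reads, with ratios of -1.54 (-3.28 to -0.30) and -1.34 (-2.65 to -0.32). Another first-intron region of Smad3, 5192 bases past a different start, held 16 and 30 reads, a ratio of 1.34 (0.52 to 2.24). In Smurf1 a region 13379 bases before an internal start held 3 and 19 reads, a ratio of 2.78 (1.46 to 4.78). The median of all regions beyond 3 kb was 1.04 in this table, and with the median of all regions as 0 the ratios of 1.67, 1.46 and 1.34 became 0.70, 0.49 and 0.37, all under 2-fold.

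The S set was sparser, with 7 to 36 reads per member region in its first table. At Smad3 the promoter region chr9:63665405-63665557, 205 bases upstream, counted 3 reads (NC), 24 (TGF-b) and 8 (siRNA). Densities of 2.44 and 10.2 gave a log2 ratio of 2.07 (0.78 to 4.06), and those of 12.2 and 4.62 gave -1.40 (-2.63 to -0.38). The count of 3 in NC is at the floor, and the region was called as a peak in TGF-b only. No S set member region was called in both libraries of a table. Smad2's promoter region at chr18:76374375-76374528 held 15, 21 and 40 reads, with ratios of -0.09 (-1.01 to 0.87) and 0.93 (0.21 to 1.72). There the siRNA library was the highest, above TGF-b beyond counting error.

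Smurf1 had an S set region 1616 bases past an internal start with 3, 15 and 10 reads, ratios of 1.41 (0.05 to 3.43) and -0.45 (-1.62 to 0.63). At its main start it held 17 reads in NC and 17 in TGF-b, a ratio of -0.56 (-1.51 to 0.40) after the authors' scaling. An intron region 21682 bases past the start held 9 reads in NC and 4 in TGF-b, a ratio of -1.59 (-3.37 to -0.15). The promoter of Smurf2 held 8, 14 and 10 reads, and both intervals included 0. The Ski promoter was in the second S set table only, with 18 reads in TGF-b and 26 in siRNA, a ratio of 0.56 (-0.27 to 1.44). The Smad7 intron held 8 and 3 reads in NC and TGF-b, a ratio of -1.77 (-3.81 to -0.22), and the 3' UTR of Skil held 5 and 2. Smad6 introns held 4, 6 and 5 reads at one place and 6 and 9 in NC and TGF-b at another. In siRNA over TGF-b, a Smad4 intron held 5 and 12 reads and a Smad3 intron 6 and 12.

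Of the 11 S set regions for TGF-b over NC, 2 were at least 2-fold higher and 3 lower, beside 17.4% and 26.7% of all S set regions, and their median was -0.11 beside -0.20. Of the 9 for siRNA over TGF-b, 1 was higher and 2 lower, beside 15.1% and 27.8%, and their median was -0.09 beside -0.21. Within 3 kb of a start, 2 of 5 regions were higher in TGF-b, those of Smad3 and the internal start of Smurf1, beside 22% of all such regions. By the densest such region per gene, Smad3 was higher among 4 genes (22.2% of all genes) and lower in siRNA among 5 (15.1%). Counts this small describe single regions and not the list.

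Where a T set and an S set region overlapped by at least 1 bp, the sets could be set side by side at one place. For TGF-b over NC, 5 regions did so, 8.06% of the T set members and 45.5% of the S set members. The share of all regions of the sets that overlap was not taken, so these shares describe the members only. The overlapping regions were the starts of Smad2, Smad3, Smurf1 and Smurf2 and an intron of Smad7. At Smad2 the T set ratio was 2.27 and the S set ratio -0.09, with intervals that did not overlap. At Smad3 they were 0.46 and 2.07, with intervals that overlapped. For siRNA over TGF-b, 4 regions overlapped, 5.41% and 44.4% of the lists, again with no share of all regions taken. At Smad2 the T set ratio was -1.78 and the S set ratio 0.93, and at Ski -1.43 and 0.56, with intervals apart at both. At Smad3 both were negative, -0.86 and -1.40. The difference between sets was not tested.

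**Figure D4:**
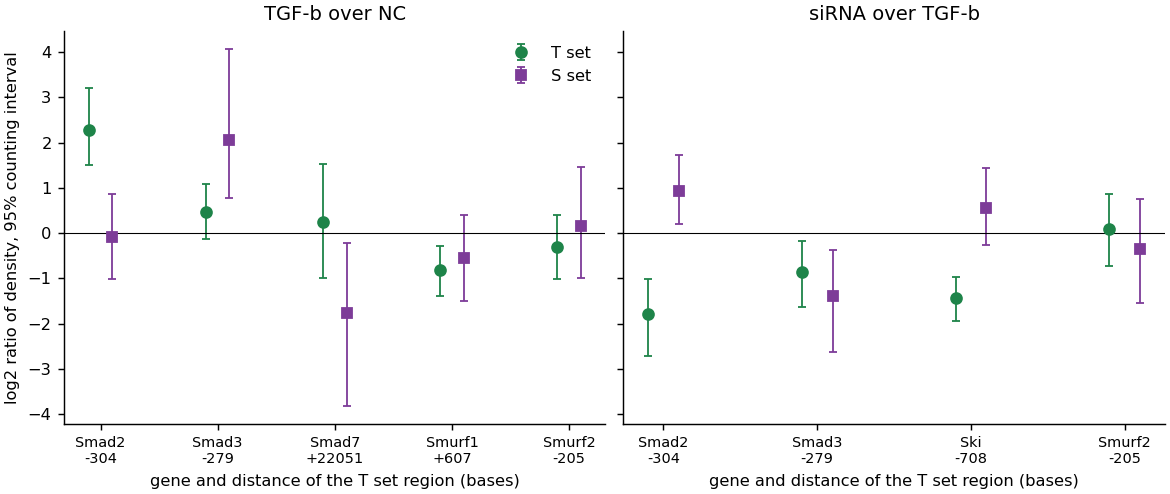
Log2 ratio of density with 95% counting intervals (vertical axis) at places where a T set region (circles) and an S set region (squares) overlap, by gene and distance of the T set region from a start. At Smad2 the T set interval lies above the S set interval for TGF-b over NC, 1.51 to 3.21 against -1.01 to 0.87, and below it for siRNA over TGF-b.

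Of 41 other genes of the TGF-b and SMAD pathway, 38 had a T set start-site region for TGF-b over NC, of which 6 were at least 2-fold higher and 9 lower, where 20.6% and 25.1% of all genes were, with a median of -0.34 beside -0.04 over all genes. Among the genes named by the rule, the highest ratio was at Pmepa1, a membrane protein that holds back receptor-regulated SMADs, with 2 reads in NC and 29 in TGF-b, a ratio of 3.44 (2.06 to 5.90). Wwp1, a ubiquitin ligase related to the SMURFs, held 17 and 47 reads, a ratio of 1.43 (0.70 to 2.28). Tgfbr1, the type I receptor, held 24 and 50, a ratio of 1.03 (0.37 to 1.76). On the other side, Ltbp2, of the latent TGF-b binding protein family, held 26 and 6 reads in an intron, a ratio of -1.86 (-3.27 to -0.78). Ppm1a, a phosphatase of SMADs, held 21 and 6 reads, a ratio of -1.55 (-2.98 to -0.44), and Trim33, a ubiquitin ligase that acts on SMAD4, held 20 and 7, a ratio of -1.30 (-2.63 to -0.21). With the median of all regions as 0, 15 of the 38 were higher and 3 lower, and the ratios of Ltbp2, Ppm1a and Trim33 became -1.21, -0.90 and -0.65. The share of all genes under that centring was not taken, so these counts have none beside them.

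For siRNA over TGF-b in the T set, 34 of the 41 had a start-site region, with 11 higher and 6 lower, where 31.5% and 20.4% of all genes were, and a median of 0.25 beside 0.20. Pmepa1 held 29 and 8 reads, a ratio of -1.27 (-2.49 to -0.29), and Wwp1 held 47 and 15, a ratio of -1.11 (-2.00 to -0.35). The activin receptor gene Acvr1b held 22 and 0. In contrast, Tgfb1, the ligand, held 25 and 61 reads, a ratio of 1.73 (1.10 to 2.43). With the median of all regions as 0, 3 of the 34 were higher and 13 lower, and the ratio of Tgfb1 became 0.76. Here too the share of all genes under that centring was not taken. In the S set 16 and 18 of the 41 had a region, with 3 higher and 4 lower for TGF-b over NC, where 22.2% and 15.9% of all genes were, and a median of 0.47 beside 0.20. For siRNA over TGF-b, 2 were higher and 1 was lower, where 13.6% and 15.1% of all genes were, and the median was -0.53 beside 0.05. The Ltbp2 promoter held 3 and 19 reads in NC and TGF-b, a ratio of 1.74 (0.42 to 3.74), and 7 in siRNA, a ratio of -1.23 (-2.57 to -0.14). Crebbp, a histone acetyltransferase that SMADs recruit, held 5 reads in TGF-b and 25 in siRNA, a ratio of 2.21 (1.07 to 3.75). Trim33 held 5 reads in NC and 17 in TGF-b, a ratio of 1.01 (-0.20 to 2.57) with an interval that includes 0. Its S set region does not overlap its T set region. Wwp1 held 12 in TGF-b and 25 in siRNA, a ratio of 1.07 (0.15 to 2.10), where its T set and S set regions overlap. Both ratios had the other sign than in the T set. These differences between sets were not tested.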

How the data were processed

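Per the study's methods, the authors made CUT&Tag libraries with a transposase kit, aligned to GRCm39 by Bowtie2, and Masc2 is named for the peaks, without versions. The submitters' processing notes list mm10 and BWA 0.7.12 instead. Of 21780 genes shared with a GRCm38 annotation, 246 had the same start in the tables, so coordinates are taken as GRCm39. The deposited value is a normalized read density, a signal of 0.5 per read with 1 read added, which the authors rescaled along a line in mean log2 density, which puts the shared peaks of a table around 0. With that line undone, 99.98% to 99.99% of regions, and all member regions, came to whole reads with a tolerance of 0.1. Library totals were not used here. The tables also hold the authors' fold changes and p-values, which were not used. Tables were normalized separately, so ratios stay within a table, and reads of the 3 libraries of a set were set side by side at regions that both of its tables hold, where the reads of the TGF-b library were equal.

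Ratios are log2 of the later over the earlier density, with a Wilson 95% interval (from the later library's share of a region's reads, shifted by the line). These intervals and the floor of 3 reads cover counting error only. Region scripts ran in Python 3.11.15 with pandas 2.3.3, numpy 2.4.6 and scipy 1.17.1 and were tested on simulated data. The named regions are, per gene and table, the densest one within 3 kb of a start, the densest of all and those past 2-fold with at least 20 reads. Of the pathway list, at most 5 genes per direction and table were considered. Other regions are named by the members' full account. The members, lists and rules were chosen with earlier results of these data known.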

Additional observations from a re-analysis of the deposited data

Results flagged for a closer look

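Smad2 stood out between the sets. At its promoter the siRNA over TGF-b log2 ratio was -1.78 (-2.71 to -1.02) for the T set and 0.93 (0.21 to 1.72) for the S set, so the 1 library pair of each set moved in opposite directions beyond counting error. The difference was not tested, since each set had 1 library per treatment, and the siRNA named in the labels also differs between the sets.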

How the results depend on the processing

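No paired analysis was possible because each set had 1 library per treatment, and leaving out a replicate was not possible for the same reason. The medians of the lists depended on where 0 was set. With the median of all regions as 0, it was 0.49 for TGF-b over NC and -0.51 for siRNA over TGF-b in the T set, and 0.0845 and 0.12 in the S set, all with the other sign. Without the authors' line, it was 0.46 for TGF-b over NC in the S set, again reversed, and 0 for siRNA over TGF-b in the T set. With at least 10 reads in a library, the S set medians were 0.16 and 0.56, both reversed.

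Counts of member regions in the T set moved as follows. For TGF-b over NC, 10 were higher with 1 region per overlapping window, 9 higher and 4 lower at 4-fold, and 21 lower at 1.5-fold. For siRNA over TGF-b, 12 were higher and 22 lower after centring on the median, 19 were higher with at least 10 reads, 8 were lower with 1 region per overlapping window, and 12 were higher and 5 lower at 4-fold. The choice of 1 region per overlapping window was added after seeing the data. For none of these settings, in either set, was the share of all regions taken. In the S set, TGF-b over NC gave 0 lower with at least 10 reads, and 1 higher and 0 lower at 4-fold. For siRNA over TGF-b there, centring gave 3 higher and 1 lower, at least 10 reads gave 1 lower, reads of 3 or fewer set to 3 gave 1 lower, a pseudocount of 0.1 reads gave 2 higher, 1.5-fold gave 3 higher, and 4-fold gave 0 higher and 0 lower. Of 65 named single regions, 10 took the other sign with the median of all regions as 0, and 6 of these also without the authors' line. The intervals of all 10 include 0, and the largest of their ratios is 0.38 in size. Of the 45 named regions past 2-fold, 13 fell under it in at least 1 setting, and 16 of the 65 moved beyond their counting interval in at least 1. Leaving out intergenic regions changed no count, because those carry no gene. Depth limits Smad4, Skil, Tgif1 and the S set most, where many regions hold 10 reads or fewer in a library.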
